A study of Mus musculus with 6 samples.

Results

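The genes described here are the enzymes and carriers with which the liver turns ammonia into urea and handles arginine, ornithine, glutamine and glutamate. They were followed in 3 liver RNA samples of mice with a liver-specific small Maf knockout (sMaf CKO) and 3 of wild-type control mice, all 5 weeks old and on a mixed 129Sv/J, C57BL/6J and ICR background. The small Maf proteins are short bZIP transcription factors that bind DNA as partners of factors such as NRF1 and NRF2, and the comparison asks which liver transcripts differ without them. The labels name neither the deleted small Maf genes, the Cre driver nor the sex of the mice; the 3 samples per genotype are described as independent, without saying whether each is 1 animal. Of 10 listed genes (Cps1, Otc, Ass1, Asl, Arg1, Nags, Slc25a15, Gls2, Oat and Glud1), 9 had a probe that could be named through its transcript accession, out of 21059 genes and transcripts tested in all. Cps1, which encodes the carbamoyl phosphate synthetase that opens the cycle, matched no probe and was not analysed here. Otc was read by 2 probes and each other gene by 1, and all 10 probes were well above background on all 6 arrays.

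The urea cycle runs in hepatocytes across the mitochondria and the cytosol. N-acetylglutamate from Nags switches on Cps1, Otc joins carbamoyl phosphate to ornithine, and the citrulline made leaves in exchange for ornithine through Slc25a15. In the cytosol Ass1 and Asl build and split argininosuccinate, and Arg1 splits arginine into urea and ornithine. Gls2 and Glud1 release ammonia from glutamine and glutamate, and Oat draws ornithine off towards glutamate. Most of these genes are highest in periportal hepatocytes, whereas Oat, like glutamine synthetase (Glul), is highest around the central vein.

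Each array measured 1 RNA sample. Levels are log2 of the processed spot signal minus the 75th percentile of the array, so a level of 5 lies 5 log2 units above that percentile, and levels of different genes are not compared. That percentile lay between 484.4 and 960.5 signal units on sMaf CKO arrays and between 483.4 and 609.3 on control arrays, the highest being sMaf CKO array 1. Mafg, a small Maf gene, had levels of -2.97, -4.36 and -0.76 on sMaf CKO arrays 1, 2 and 3, against 1.88, 1.87 and 2.23 on control arrays 1, 2 and 3. Every sMaf CKO array lay below every control array (difference -4.69, adjusted p = 0.0533 by limma and 0.0207 with slide as a block), while Maff and Mafk differed by 0.15 and 0.21. Slide 1 carried the arrays numbered 1 and 2 and slide 2 those numbered 3, so a difference within slide 2 sets a single knockout array against a single control array. As a check of the tissue, the 10 measured hepatocyte markers were well above background in both genotypes.

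All 9 measured genes had a lower mean in sMaf CKO liver, and none passed the test. The differences ran from -1.73 for Oat to -0.27 for Nags on the log2 scale with a median of -0.61, whereas the median over all genes tested was -0.05 and 54.7% of them were below 0. With limma and Benjamini-Hochberg adjustment over all genes, 0 of 9 were called at an adjusted p under 0.05, where 0.541% of all genes were called and 0.157% were called lower. By the brightest probe of each gene, differences at or below -1 were found for 3 of the 9 (Oat, Arg1 and Gls2), against 3.78% of all genes. At an unadjusted p under 0.05, 4 of the 9 were lower (Arg1, Oat, Gls2 and Otc), against 8.10% of all genes. For 5 of 9 genes every sMaf CKO array lay below every control array (Otc, Arg1, Gls2, Oat and Glud1), a pattern found in 11.6% of all genes. The gap between the nearest arrays was 0.995 for Arg1 and 0.36 for Gls2 but 0.087 for Oat, 0.014 for Glud1 and 0.012 for Otc. These counts and gaps take Otc by its brighter probe. Its dimmer probe differed by -1.12, with levels up to 3.09 on sMaf CKO arrays and from 3.999 on control arrays. In bulk liver, fewer hepatocytes and less RNA per hepatocyte cannot be told apart.

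**Figure D1:**
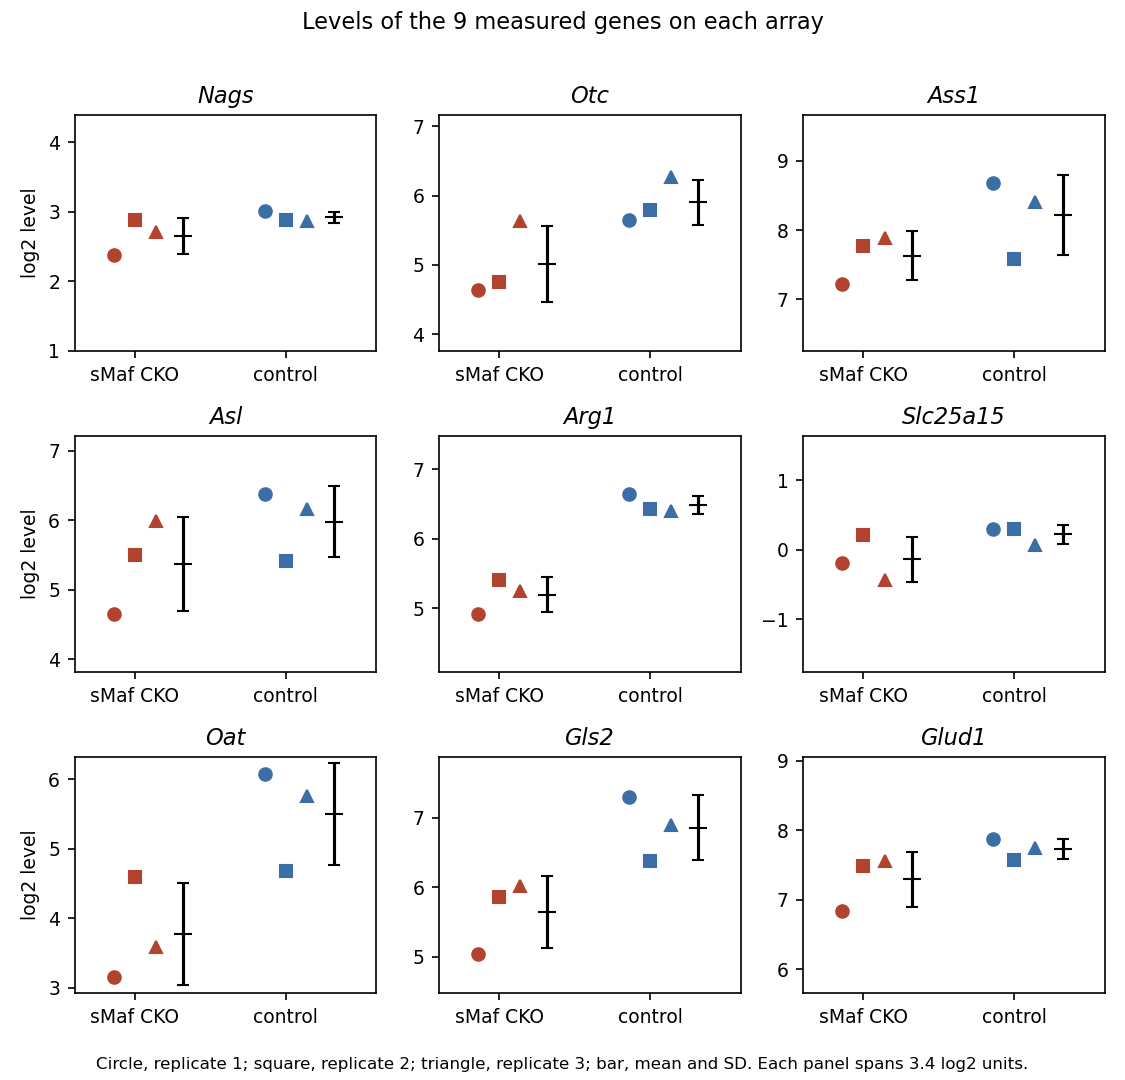
Log2 level relative to the array's 75th percentile (y axis) of the 9 measured genes on each array, with sMaf CKO arrays left of control arrays; points are arrays and bars give mean and SD (n = 3 each). The genotypes are clearly apart for Arg1 (gap 0.995). For Gls2 they do not overlap, but the gap (0.36) is smaller than the SD of either genotype (0.52 in sMaf CKO, 0.47 in control). They nearly touch for Otc (brighter probe), Oat and Glud1, and overlap for Nags, Ass1, Asl and Slc25a15.

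The steps inside the mitochondrion come first in the cycle. Nags makes the activator of Cps1. Its levels were 2.38, 2.89 and 2.71 on sMaf CKO arrays 1, 2 and 3, against 3.01, 2.89 and 2.87 on control arrays 1, 2 and 3. Arrays 1 and 3 of sMaf CKO liver lay below all controls but array 2 did not, and the genotypes overlapped by 0.018 (difference -0.27, SE 0.22, adjusted p = 0.576 in limma's test; -0.32 within slide 1 and -0.16 within slide 2). The Nags difference was -0.12 without sMaf CKO array 1 and -0.15 under quantile normalization. Its sign turned with no scaling between arrays (0.021), under scaling on spike-in probes (0.060) and under scaling on hepatocyte markers (0.16).

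Otc, the X-linked ornithine transcarbamylase, had levels of 4.65, 4.75 and 5.64 on sMaf CKO arrays 1, 2 and 3. Control arrays 1, 2 and 3 had 5.65, 5.79 and 6.27. Array 3 of sMaf CKO liver thus came within 0.012 of the lowest control. In signal divided by the array's percentile (scaled signal), sMaf CKO arrays 1 and 2 were at 41.8% and 44.9% of the control mean. Such means were taken on the log2 scale. The difference in Otc was -0.89 (SE 0.33, 95% interval -1.65 to -0.13, adjusted p = 0.239 by limma). The dimmer probe of Otc gave tighter groups, with 3.09, 2.96 and 2.78 on sMaf CKO arrays 1, 2 and 3 against 3.999, 4.12 and 4.07 on control arrays 1, 2 and 3. By that probe the difference was -1.12 (SE 0.20, adjusted p = 0.0645 by limma over all kept probes). There sMaf CKO array 3 was the lowest array, not the highest, with 41.2% of the control mean of scaled signal. Both probes put Otc lower, but they disagree on array 3: within slide 2 the difference was -0.63 by the brighter probe and -1.29 by the dimmer one, while within slide 1 it was -1.02 and -1.03. Averaged over both probes, Otc differed by -1.01 (adjusted p = 0.0960 by limma).

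Slc25a15, the carrier that exchanges ornithine and citrulline across the inner mitochondrial membrane, had levels of -0.19, 0.21 and -0.43 on sMaf CKO arrays 1, 2 and 3, against 0.30, 0.30 and 0.064 on control arrays 1, 2 and 3. Array 2 of sMaf CKO liver lay among the controls, and arrays 1 and 3 lay below them (difference -0.36, SE 0.24, adjusted p = 0.484 in limma's test; -0.29 within slide 1 and -0.50 within slide 2). The difference in Slc25a15 was -0.21 without sMaf CKO array 3, -0.035 under spike-in scaling, -0.074 with no scaling and 0.066 under scaling on hepatocyte markers.

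Of the cytosolic enzymes, Ass1 and Asl ranged more widely within each genotype than their means differed. Ass1, argininosuccinate synthetase, had levels of 7.23, 7.77 and 7.89 on sMaf CKO arrays 1, 2 and 3 and of 8.68, 7.58 and 8.40 on control arrays 1, 2 and 3. Asl, argininosuccinate lyase, had 4.65, 5.50 and 5.99 on sMaf CKO arrays 1, 2 and 3 and 6.38, 5.41 and 6.16 on control arrays 1, 2 and 3. For both genes control array 2 was the lowest control and lay below sMaf CKO arrays 2 and 3. The differences were -0.59 for Ass1 (SE 0.34, adjusted p = 0.420 by limma; -0.63 within slide 1 and -0.51 within slide 2) and -0.61 for Asl (SE 0.40, adjusted p = 0.485 by limma). Their 95% intervals ran from -1.38 to 0.198 and from -1.54 to 0.33, so a difference of 0 and one of -1 both lie inside them. For Ass1 the difference was -0.39 without sMaf CKO array 1, -0.36 without control array 1 and -0.91 without control array 2. It was -0.19 under quantile normalization, -0.27 under spike-in scaling, -0.30 with no scaling and -0.16 under scaling on hepatocyte markers. The difference in Asl was -0.24 without sMaf CKO array 1, -0.91 without sMaf CKO array 3, -0.82 within slide 1 and -0.17 within slide 2. It lay between -0.32 and -0.18 under those 4 settings.

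By the brightest probe of each gene, Arg1 set the genotypes furthest apart relative to the spread. Arg1 is the cytosolic arginase that releases urea, and its levels were 4.91, 5.41 and 5.25 on sMaf CKO arrays 1, 2 and 3, against 6.64, 6.43 and 6.40 on control arrays 1, 2 and 3. In scaled signal the 3 knockout samples were at 33.5%, 47.2% and 42.3% of the control mean. Each genotype was compact, with mean levels of 5.19 ± 0.25 in sMaf CKO and 6.49 ± 0.13 in control liver (SD, n = 3 each). The difference was -1.30, or 2.46-fold lower (SE 0.22, 95% interval -1.82 to -0.78), with an adjusted p of 0.0555 in limma's test, just short of the threshold. It was -1.37 within slide 1 and -1.15 within slide 2. With slide as a block the adjusted p was 0.0464, a fit in which 0.622% of all genes were called lower, and Arg1 was the single one of the 9 genes it called (the others had adjusted p from 0.0833 for Otc to 0.539 for Nags). Arg1 was also called with trended and robust variances (adjusted p = 0.0329 by limma), where 0.494% of all genes were called lower. Under normexp background correction its adjusted p was 0.0492 by limma, where 21 of 21059 genes were called lower. Among probes above background on all 6 arrays it was 0.0329, where 99 of 17237 genes were called lower. Arg1 was not called when any array was left out (adjusted p from 0.0627 to 0.192 by limma). Nor was it called under quantile normalization (-0.95, adjusted p = 0.100 by limma) or spike-in scaling (-0.97, adjusted p = 0.573). The same held for scaling on hepatocyte markers (-0.87, adjusted p = 0.110) and no scaling (-1.01, adjusted p = 0.310). Without a filter on dim probes the adjusted p was 0.196.

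The unscaled signal of Arg1 also kept the genotypes apart. It ran from 18439 to 28973 on sMaf CKO arrays and from 40892 to 57964 on control arrays. Gls2 and Otc were likewise apart before scaling, Gls2 with 31416 to 38726 on sMaf CKO and 50560 to 91827 on control arrays and Otc with 17993 to 24160 on sMaf CKO and 29230 to 37293 on control arrays. That holds for the brighter probe of Otc. Its dimmer probe overlapped before scaling, with 8172 on sMaf CKO array 1 against 8137 on control array 3. Counted by the brighter probe, these were 3 of 9 genes, where 4.32% of all genes had every unscaled sMaf CKO signal below every control signal. The other 6 overlapped, among them Oat, with 5801 to 16103 on sMaf CKO and 15600 to 39407 on control arrays.

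Oat had the largest difference and the widest spread. The enzyme, ornithine aminotransferase, had levels of 3.16, 4.59 and 3.58 on sMaf CKO arrays 1, 2 and 3, against 6.08, 4.68 and 5.76 on control arrays 1, 2 and 3. In scaled signal, arrays 1 and 3 of sMaf CKO liver were at 19.6% and 26.3% of the control mean. Array 2 of sMaf CKO liver was at 53.0%, and its level lay 0.087 below that of control array 2. The difference was -1.73, or 3.32-fold lower (SE 0.47, 95% interval -2.83 to -0.62, adjusted p = 0.154 by limma). It was -1.51 within slide 1 and -2.18 within slide 2, and lay between -2.14 and -1.42 when single arrays were left out.

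The enzymes that release ammonia differed in size. Gls2, the liver-type glutaminase, had levels of 5.05, 5.86 and 6.02 on sMaf CKO arrays 1, 2 and 3, against 7.30, 6.37 and 6.90 on control arrays 1, 2 and 3. No sMaf CKO array reached a control, and the difference was -1.22, or 2.33-fold lower (SE 0.35, 95% interval -2.03 to -0.41, adjusted p = 0.162 by limma; -1.39 within slide 1 and -0.89 within slide 2). Glud1, the mitochondrial glutamate dehydrogenase, had 6.83, 7.48 and 7.56 on sMaf CKO arrays 1, 2 and 3 and 7.87, 7.57 and 7.75 on control arrays 1, 2 and 3. Only sMaf CKO array 1 stood well below the controls, and the difference was -0.44 (SE 0.26, adjusted p = 0.434 by limma; -0.57 within slide 1 and -0.19 within slide 2). The Glud1 difference was -0.21 when sMaf CKO array 1 was left out, and it was -0.0046 under quantile normalization, -0.11 under spike-in scaling, -0.15 with no scaling and -0.013 under scaling on hepatocyte markers.

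**Figure D2:**
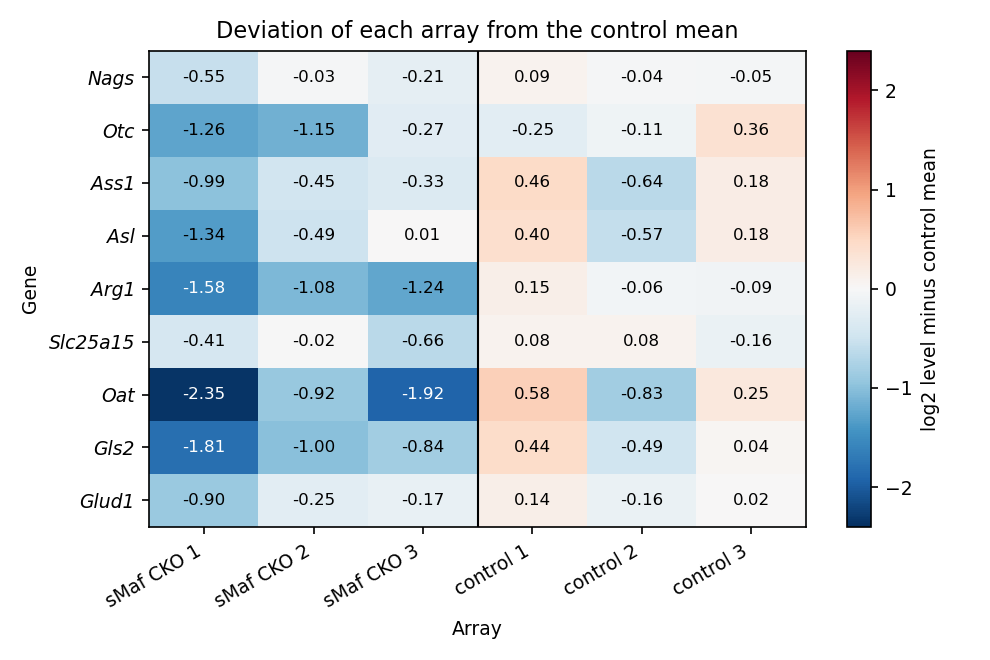
Log2 level of each gene (rows) on each array (columns, sMaf CKO left of control) minus the gene's control mean; blue is below and red above that mean. Array 1 of sMaf CKO liver is the lowest of its genotype for 8 of 9 genes, and Arg1 is below -1 on all 3 sMaf CKO arrays.

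Single arrays stood out across many of these genes. Averaged over the 9 genes, the deviation from the control mean was -1.24, -0.60 and -0.63 on sMaf CKO arrays 1, 2 and 3 and 0.23, -0.31 and 0.08 on control arrays 1, 2 and 3. Array 1 of sMaf CKO liver was the lowest of its genotype for 8 of 9 genes (all but Slc25a15), and control array 1 was the highest control for 8 of 9 (all but Otc). These levels are relative to the 75th percentile, which was highest on sMaf CKO array 1 (960.5). In unscaled signal that array was the lowest of its genotype for Asl only. It was the highest sMaf CKO array for Arg1 (28973), Nags (4986) and Slc25a15 (841). The median difference over the 9 genes was -0.39 without sMaf CKO array 1 and -0.41 without control array 1, but -0.91 without sMaf CKO array 3 and also -0.91 without control array 2. All 9 differences stayed below 0 within slide 1 (median -0.82) and within slide 2 (median -0.51), and whenever a single array was left out.

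Markers of hepatocytes and of other cells were set beside these genes. The 10 measured hepatocyte markers (of 12 listed) were all below 0, with a median of -0.42 (-0.59 within slide 1 and -0.07 within slide 2) and 0 called, the best-ranked being the fibrinogen gene Fga (-0.72, adjusted p = 0.164 by limma) and the apolipoprotein gene Apoa1 (-0.57, adjusted p = 0.293). Their summed level ran from 2163 to 3734 times the 75th percentile on sMaf CKO arrays and from 3295 to 3827 on control arrays. Scaled on the mean of these markers, 7 of the 9 genes had negative differences, with a median of -0.18. For all genes this scaling put 4142 of 21059 below 0, with a median of 0.37. Under that scaling Arg1 differed by -0.87, Oat by -1.30, Gls2 by -0.79 and Otc by -0.47, while Nags (0.16) and Slc25a15 (0.066) turned positive and Glud1 was at -0.013. Kupffer cell and macrophage markers were above 0 for 15 of 15 measured genes, 2 of them called (Gpnmb, and Trem2 with a difference of 4.18 and an adjusted p of 0.0105 by limma), with summed levels of 226.2 to 471.7 on sMaf CKO and 99.4 to 173.4 on control arrays. Gpnmb did not stand well above background in control liver. It passed the filter only through its 3 sMaf CKO arrays, the group where it was high, so its call is no support. Over all genes, 81 of 21059 were called higher. Stellate cell and fibroblast markers were above 0 for 10 of 10 genes, with sums of 137.5 to 170.4 on sMaf CKO and 94.7 to 121.5 on control arrays, and 0 were called. The other lists had 0 called genes and sums that overlapped: 50.4 to 68.7 on sMaf CKO and 56.1 to 77.3 on control arrays for endothelial markers (4 of 9 above 0), and 11.5 to 50.3 on sMaf CKO and 9.96 to 12.3 on control arrays for cholangiocyte markers (7 of 8). Lymphocyte and neutrophil markers (9 of 13 above 0) summed to 6.98 to 10.6 on sMaf CKO and 5.86 to 7.48 on control arrays, and erythroid ones (3 of 6) to 132.0 to 279.6 on sMaf CKO and 92.4 to 209.3 on control arrays. The part of these cell types in the differences of the urea cycle genes was not tested.

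Zonation markers allow the periportal genes and Oat to be set beside their zones. Of 11 measured periportal markers outside the urea cycle, 10 were below 0 with a median of -0.61 (-0.18 within slide 2), and of 13 pericentral markers 11 were below 0 with a median of -0.23 (-0.11 within slide 2). No marker of either zone was called (2 of each list at an unadjusted p under 0.05, where 16.8% of all genes were). Periportal Pigr, an immunoglobulin receptor, differed by -1.25 (adjusted p = 0.147 by limma) but Cdh1, the E-cadherin gene, by 1.09 (adjusted p = 0.0859). Among pericentral markers the Wnt target Axin2 differed by 1.11 (adjusted p = 0.113 by limma). Glul, which shares the pericentral zone with Oat, had levels of 4.49, 6.02 and 6.08 on sMaf CKO arrays 1, 2 and 3 and of 6.53, 6.01 and 6.498 on control arrays 1, 2 and 3, so that the genotypes overlapped (difference -0.82, SE 0.44, adjusted p = 0.396 by limma).

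**Figure D3:**
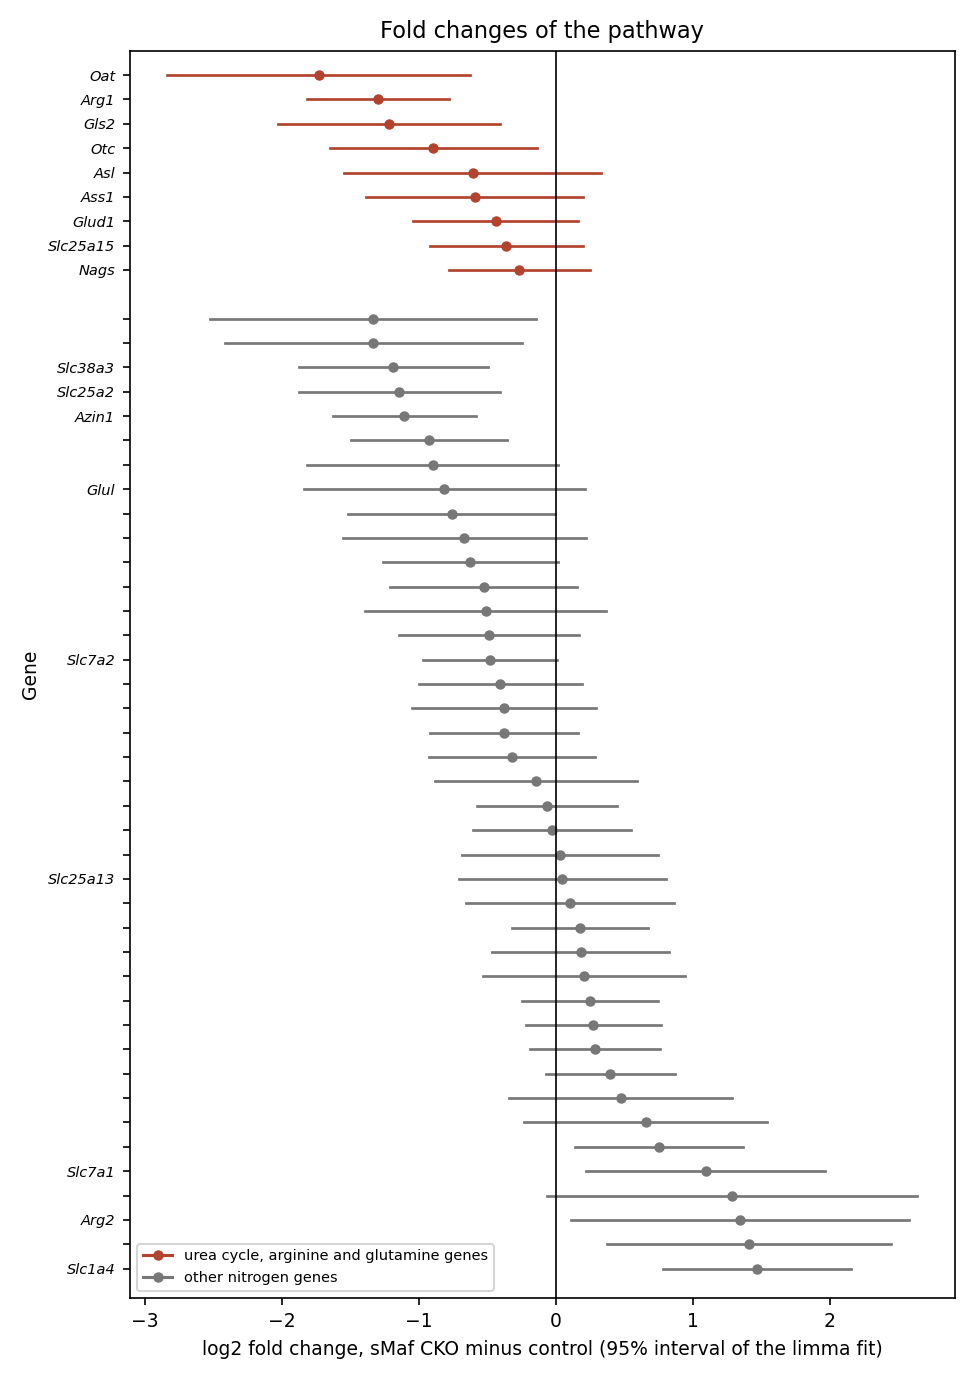
Log2 fold change, sMaf CKO minus control, with its 95% interval (x axis) for the 9 urea cycle, arginine and glutamine genes (red) above 40 other genes of nitrogen handling (grey, labelled where named in the text), each sorted by size. All 9 red points lie below 0, with Oat, Arg1, Gls2 and Otc having intervals that end below 0, while the grey points fall on both sides.

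The wider set of nitrogen genes was split. Of 44 listed genes of ammonia, arginine, glutamine, glutamate and polyamine handling, 40 were tested, with 22 below 0, 18 above 0, a median of -0.11 and 0 called. At an unadjusted p under 0.05 there were 7 lower and 5 higher (8.10% and 8.71% of all genes). The best-ranked were Slc1a4, a carrier of small neutral amino acids (1.47, SE 0.30, adjusted p = 0.0832 by limma and 0.0445 with slide as a block, where 0.992% of all genes were called higher), and Azin1, an antizyme inhibitor that favours polyamine synthesis (-1.10, SE 0.22, adjusted p = 0.0854 by limma). Slc25a13, the mitochondrial carrier that exports aspartate for Ass1, had an estimate near 0 (0.05, 95% interval -0.71 to 0.80, adjusted p = 0.959 by limma). Slc38a3, the glutamine carrier of periportal hepatocytes that stands next to Gls2, was named after its values were seen. It had levels of 5.28, 6.02 and 6.04 on sMaf CKO arrays 1, 2 and 3 and of 7.26, 6.61 and 7.03 on control arrays 1, 2 and 3, lower on every sMaf CKO array (difference -1.19, adjusted p = 0.128 by limma).

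For 2 of 3 pairs of related genes the liver form had an estimate below 0 and the more widely expressed form one above 0, none of them called. Arg2, the mitochondrial arginase of other tissues, differed by 1.34 (SE 0.53, adjusted p = 0.266 by limma), against -1.30 for Arg1. Its probe was well above background on 5 of 6 arrays, with levels of -2.53, -4.35 and -4.65 on sMaf CKO arrays 1, 2 and 3 and of -4.90, -5.19 and -5.49 on control arrays 1, 2 and 3. Slc7a1, the widely expressed arginine carrier, differed by 1.09 (adjusted p = 0.216 by limma), and Slc7a2, the liver one, by -0.48 (adjusted p = 0.306). Slc25a2, a second ornithine carrier, differed by -1.14 (adjusted p = 0.154 by limma), and Slc25a15 by -0.36. The probes of Slc7a1 and Slc25a2, too, were well above background on 5 of 6 arrays. The log2 ratio of the 2 forms was computed on each array for these 3 pairs, which were chosen after their values were seen. The ratio of Arg1 to Arg2 lay at -4.24 to -1.78 from the control mean on sMaf CKO arrays (difference -2.65), outside the control range of -0.15 to 0.21. Slc7a2 to Slc7a1 differed by -1.57, with sMaf CKO arrays below control arrays, and Slc25a15 to Slc25a2 by 0.78 with overlapping arrays. The ratios were not tested, since the pairs were chosen for their values. On every sMaf CKO array Arg1 and Slc7a2 lay below, and Arg2 and Slc7a1 above, every control array. The separation of these 2 ratios therefore follows from the single genes and is no further result.

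**Figure D4:**
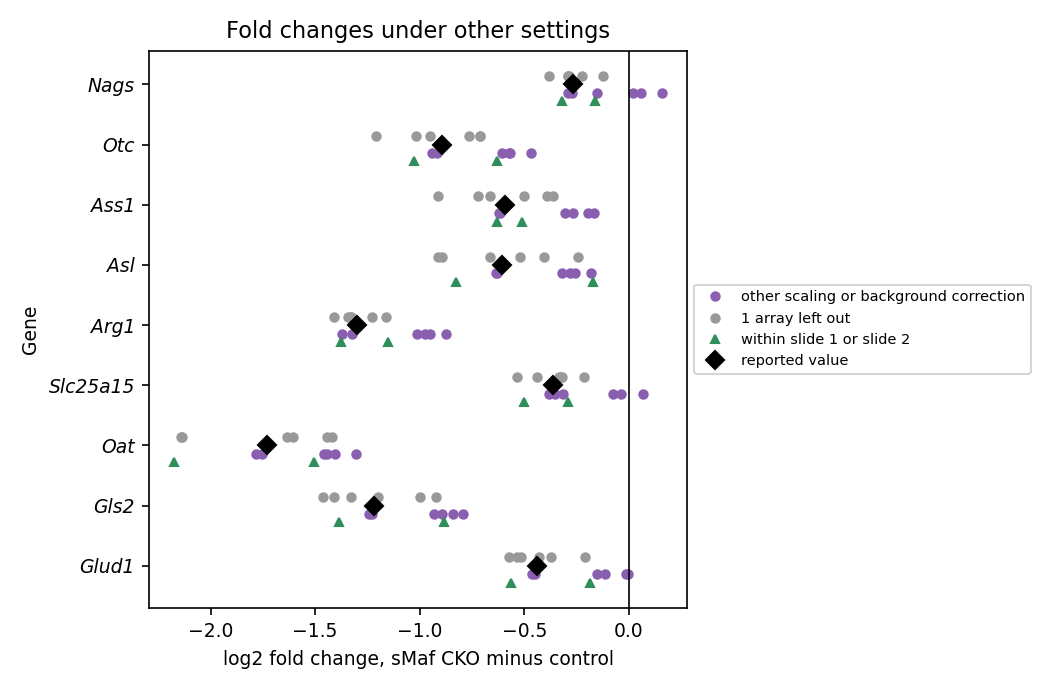
Log2 fold change, sMaf CKO minus control (x axis), of each gene as reported (diamond), under other scalings or background correction, with 1 array left out and within each slide. Oat, Arg1, Gls2 and Otc stay at or below -0.47 throughout, whereas Nags and Slc25a15 cross 0 under some scalings.

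Promoter stretches were examined for the 6 of 10 genes present in RefSeq's promoter table (7 starts, build GRCm38.p6): Otc, Ass1, Nags, Slc25a15, Oat and Glud1. The 250 bases before each start were searched on both strands for the core of the element bound by CNC and small Maf partners (TGACNNNGC), for the CCAAT box and for the GC box (GGGCGG). None of the 7 stretches held TGACNNNGC, which 10.2% of all 32851 promoters held in that window. CCAAT was present in 1 of the 7, and GGGCGG in the stretches of Ass1, Nags, Glud1 and Slc25a15, while 33.8% and 32.7% of all promoters held them. The stretches of Oat and Otc are shown because these genes had 2 of the larger differences and lie far apart in base composition, with 60.0% and 43.6% G and C (median of all promoters 52.4%). Capitals mark motif matches, here CCAAT at -47 (opposite strand) and at -22 in Oat and none in Otc, with no overlap between motifs. The Oat stretch lies at chr7:132576399-132576648 on the minus strand and the Otc stretch at chrX:10252055-10252304 on the plus strand, both given 5′ to 3′ along the gene. A match is a description of these letters and not a bound site.
Oat: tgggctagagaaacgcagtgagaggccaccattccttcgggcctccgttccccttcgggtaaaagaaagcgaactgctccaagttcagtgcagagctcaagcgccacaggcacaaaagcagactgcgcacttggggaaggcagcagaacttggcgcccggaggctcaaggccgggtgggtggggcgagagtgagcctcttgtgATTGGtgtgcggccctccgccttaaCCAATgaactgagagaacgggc
Otc: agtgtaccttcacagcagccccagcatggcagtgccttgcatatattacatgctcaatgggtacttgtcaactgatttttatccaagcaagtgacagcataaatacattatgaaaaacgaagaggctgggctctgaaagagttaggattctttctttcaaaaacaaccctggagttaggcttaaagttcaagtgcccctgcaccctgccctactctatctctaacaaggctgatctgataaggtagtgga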

How the data were processed

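Total RNA from liver (500 ng per sample) was amplified, labelled with Cy3 and hybridised to 1 array per sample, per the labels' protocols. Per the file headers, Agilent Feature Extraction 10.7.3.1 gave the deposited spot intensity, with background subtraction and spatial detrending within an array and none between arrays. The deposited value table holds log2 values that match log2 intensity minus the 75th percentile, centred per probe on the median of 6 arrays (r of at least 0.999985 on every array); its making is not stated in the labels. Its column medians were -0.10, -0.11 and 0.09 for sMaf CKO and 0.05, -0.02 and 0.08 for control arrays 1, 2 and 3.

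Here, unflagged spots of a probe were averaged on the log2 scale and 27859 of 41174 probes well above background on at least 3 arrays were kept. Transcript accessions gave 26690 probes a symbol; the brightest kept probe stood for a gene. The test was limma (version 3.58.1, R 4.3.3) on genotype alone, all 6 arrays in the fit, with Benjamini-Hochberg adjustment over 21059 genes and a threshold of 0.05. The fit was tested on simulated data. All 9 measured members are named. Of each other list, up to 4 called genes or else the 2 with the smallest p are named, with Glul and Slc25a13 in any case, and the 5 genes nearest to the best-ranked member; other names are marked as chosen after their values were seen, and some items are not reported here. Members and lists were chosen with earlier results of these data known. The fit of every probe, scaling on hepatocyte markers and no scaling were alternatives added after seeing the data. The normexp alternative used median spot and local background signals. The files name another genome build than the promoter table, so coordinates are given only for the promoter stretches, in that table's build. The number of arrays limits the precision.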

Additional observations from a re-analysis of the deposited data

How the results depend on the processing

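The count of members called was 0 as reported and 1 (Arg1) under normexp background correction, with slide as a block, with trended and robust variances and among probes well above background on all 6 arrays; it was 0 under every other setting run, each array left out included. The count of other nitrogen genes called was 1 with slide as a block, 1 among probes above background on all 6 arrays and 2 with trended and robust variances, against 0 as reported and 0 to 0 with single arrays left out. Over all genes the count was 114 (33 lower, 81 higher) as reported. It was 74 (21 lower) under normexp, 22 (4 lower) under quantile normalization, 252 (81 lower) under median scaling, 13 under spike-in scaling, 32 (3 lower) under hepatocyte marker scaling and 9 with no scaling. It was 1 without a filter on dim probes, 267 (99 lower) with the strict filter, 340 with slide as a block, 196 (86 lower) within slide 1, 308 with trended and robust variances, 3 at an adjusted p under 0.01 and from 3 to 294 with single arrays left out: 3, 11 and 294 (151 lower) without sMaf CKO replicates 1, 2 and 3, and 6, 175 and 22 without control replicates 1, 2 and 3. The numbers do not pair the samples by the labels. Same-numbered arrays correlated in their deviations from the group means at 0.06, 0.17 and 0.42 for replicates 1, 2 and 3, and with the replicate block 291 genes were called, 0 of them members; sMaf CKO replicate 1 correlated best with control replicate 2 (0.29).

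The scalings shifted all genes. The median over all genes was 0.27 under spike-in scaling, 0.37 under hepatocyte marker scaling and 0.23 with no scaling, against -0.05 as reported. Nags turned positive under these (0.060, 0.16 and 0.021) and Slc25a15 under hepatocyte marker scaling (0.066), in each case below the median of all genes. The cause of the changed counts was not tested. All member probes were well above background, and 3 arrays a genotype limit the precision.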

Other observations

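Transcription factors and receptors known to act on urea cycle genes gave estimates mostly below 0, with none called. Of 13 listed regulators 11 were measured, 10 of them below 0 with a median of -0.57 (-0.52 within slide 1 and -0.80 within slide 2), 5 lower at an unadjusted p under 0.05 and 0 called by limma, where 54.7% of all genes were below 0 and 8.10% were lower at that p. The arrays of the genotypes overlapped for 6 of the 11. For the other 5 every sMaf CKO array lay below every control array, a pattern found in 11.6% of all genes. The 2 best-ranked were Ppara, the fatty acid receptor that governs the fasting response, and Ppargc1a, a coactivator of that response. Ppara had levels of 2.94, 3.21 and 3.49 on sMaf CKO arrays 1, 2 and 3 and of 4.15, 4.05 and 4.52 on control arrays 1, 2 and 3 (difference -1.03, adjusted p = 0.116 by limma). Ppargc1a differed by -1.30 (adjusted p = 0.195 by limma; -0.87 within slide 1 and -2.16 within slide 2). Named after their values were seen, Klf15, a factor of amino acid catabolism, differed by -0.77 (adjusted p = 0.233), and Cebpa, which in mice is needed for urea cycle gene expression, by -0.94 (adjusted p = 0.266). Hnf4a, a main hepatocyte factor that acts on Otc, was also named after its values were seen and differed by -0.41 (adjusted p = 0.484), and its arrays overlapped.

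Of 14179 other genes with a symbol, those whose values over the 6 arrays lay closest to those of Arg1, each minus its own mean, were Olfr342, Olfr726, Hsd3b6, Tmem266 and Gpld1, at mean distances of 0.083 to 0.12 log2 units. None of the 5 passed limma's test (adjusted p from 0.0680 to 0.114). They were chosen for values like those of Arg1, the genotype difference included. Their test results follow largely from that choice and are no further result. The probe of Olfr342 was well above background on 5 of 6 arrays. Of the urea cycle group itself Gls2 was the nearest to Arg1, at a distance of 0.25, but it ranked only 183 among the 14179 genes.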
